A study of Mus musculus with 8 samples.

Results

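The nuclear-encoded subunits of the mitochondrial respiratory chain and of ATP synthase were described in mouse primary hepatocytes treated with glucagon, with GW4064, with both or with the solvent. Members were chosen by name from the annotation of the Affymetrix MoGene 2.0 ST array: every gene with a single symbol that starts as the subunits of complexes I to IV and of ATP synthase do (Nduf with a, b, c, s or v and a digit, Sdha to Sdhd, Uqcr, Cox with a digit from 4 to 8 and a, b or c, and Atp5). The rule found 78 genes among the 22180 genes with 1 symbol: 33 of complex I, 4 of complex II, 8 of complex III, 15 of complex IV and 18 of ATP synthase. Where several probe sets carried the same symbol, which held for 9 members, the one with the highest mean over the 8 arrays was used. A further 10 probe sets that carry several symbols, 1 of them matching, were left out. Cox4i1, Ndufab1, the cytochrome c gene Cycs and the cytochrome c1 gene Cyc1 lie outside the rule and are given beside the members. The subunits encoded in mitochondrial DNA were not analysed here.

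Complex I passes electrons from NADH to ubiquinone, complex II passes them from succinate, complex III hands them to cytochrome c and complex IV to oxygen. ATP synthase uses the resulting proton gradient to make ATP. In the liver this ATP pays for gluconeogenesis and urea synthesis, the pathways that the fasting hormone glucagon drives through cyclic AMP, and the coactivator PGC-1α (gene Ppargc1a) is known to raise the transcription of respiratory chain genes.

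Cells came from male C57Bl6J mice. They were treated for 6 h with DMSO alone, with 100 nM glucagon, with 2 µM GW4064, a synthetic agonist of the bile acid receptor FXR, or with glucagon and GW4064 together, and the culture medium of all groups held 100 nM dexamethasone. The study has 8 arrays, 1 per treatment in each of 2 experiments, so n = 2 in every group. Each experiment used 1 pool of cells from 3 mice that was divided over the 4 treatments, and 2 technical replicates were pooled per sample. The spread within a group is therefore the spread between 2 cell pools, and this small number of arrays sets the precision. All values are log2 signals as deposited, and 1 unit is a doubling. Differences come from limma with 1 mean per group over all 8 arrays, with its standard error (SE), and a gene was called changed at a Benjamini-Hochberg adjusted p below 0.05 over the 13845 genes tested.

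The hepatocyte marker list (Alb, Ttr, Apoa1 and others, 9 of 10 measured) had a median signal of 11.23 to 11.79 on the 8 arrays. Over the same arrays the Kupffer cell list had a median of 3.18 to 3.35 and the lymphocyte and neutrophil list one of 3.26 to 3.48, near the level of 3.13 to 3.27 that marks the 40th percentile of each array and served as the filter on low values; the Kupffer cell gene Cd68 was far above it, at 10.09 to 10.82. The endothelial list had a median of 3.98 to 4.69. Among its genes, Lyve1 (6.19 to 7.57) and Cdh5 (6.15 to 6.94) lay well above the filter level. Kdr (3.14 to 3.50) and Eng (2.79 to 4.21) lay lower. Over all tested genes, 7 arrays correlated with each other at 0.976 to 0.997, and the GW4064 array of experiment 2 correlated with them at 0.975 to 0.985. Results that rest on that array are given with and without it. In bulk RNA, fewer cells of a type and less RNA per cell cannot be told apart.

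Of the 78 members, 74 exceeded the filter level on at least 2 arrays and were tested. These were all 33 genes of complex I, all 4 of complex II, 7 of complex III, 13 of complex IV and 17 of ATP synthase. The 4 that did not pass were Cox8b (2.59 to 3.03 over the 8 arrays), Cox8c (median 2.87), Atp5j2 (2.64 to 3.19) and the pseudogene Uqcrh-ps1 (2.10 to 2.72). Another pseudogene, Atp5c1-ps, passed with signals of 2.90 to 3.71. RNA of its parent gene may bind to such a probe set, so its values are uncertain.

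The isoforms of complex IV that are known for other tissues gave little signal. Cox6a2, the form of heart and skeletal muscle, lay between 2.60 and 3.97, and its liver form Cox6a1 between 11.39 and 11.66. Cox7a1, also a muscle form, lay between 3.20 and 3.77, while Cox7a2 lay between 8.57 and 9.16. Among the genes best known from testis, Cox6b2 had signals of 3.19 to 3.56 and Cox7b2 of 3.01 to 3.79, whereas Cox6b1 had 8.70 to 9.27, Cox7b 7.79 to 8.96 and Cox8a 9.45 to 9.89. The muscle and testis forms thus stood near the filter level on every array, and the forms known from liver stood far above it. Probe sets differ in sensitivity, so these levels are set against the filter level and not against each other. Cox4i1, the common form of subunit 4, had 8.12 to 8.55, and Cox4i2, known from lung, had 2.88 to 3.48.

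Some genes for subunits that every respiring cell needs also had dim probe sets. Ndufs5 lay at 3.04 to 3.73, Ndufb11 at 3.57 to 4.19 and Atp5g1 at 3.45 to 4.83. Atp5g1 is one of the genes for the c subunit of the membrane ring, and the others, Atp5g2 and Atp5g3, had mean signals of 10.23 and 8.08. A difference in a gene with a dim probe set is compressed by the floor of the array. The members with the highest mean signal in their complex were Ndufb9, Sdha (the flavoprotein of succinate dehydrogenase), Uqcrb, Cox6a1 and Atp5b (the catalytic β subunit), and those with the lowest were Ndufs5, Sdhc, Uqcrh-ps1, Cox8b and Atp5j2. The median over the 74 tested members was 7.90 on both DMSO arrays (experiments 1 and 2), 8.00 and 7.91 on the glucagon arrays, 7.89 and 7.65 on the GW4064 arrays, and 8.01 and 7.98 with both agents.

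Glucagon alone changed no member past the threshold: 0 of 74 were called, where 0.116% of all genes were (16 of 13845). With the experiment as a block the count stayed at 0 of 74, beside 0.925% of all genes (128). At an unadjusted p below 0.05, limma counted 2 members without the block and 3 with it. Among all genes, 6.70% reached that p without the block and 13.1% with it. The members' differences were small and mostly of one sign. Their median was 0.12, with 61 of 74 above 0, while the median of all tested genes was -0.01, with 47.0% above 0. In experiment 1 the members' median was 0.14 and in experiment 2 it was 0.08.

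The lean toward higher values was spread over the complexes. It was positive for 27 of 33 members of complex I (median 0.11), 3 of 4 of complex II (0.22), 7 of 7 of complex III (0.15), 10 of 13 of complex IV (0.12) and 14 of 17 of ATP synthase (0.11). By experiment, 48 members were higher with glucagon in both pools, 8 were lower in both and 18 differed in sign, against 27.6% higher in both and 34.9% lower in both among all genes. The 6428 genes with a mean signal above 5.72, the members' lower quartile, had a median of -0.05 with 40.3% above 0, and of the 55 members above that level 48 were above 0. The median rested partly on 1 control array. Without the DMSO array of experiment 1 it was 0.04, and it ranged from 0.10 to 0.13 when any other array of the 2 groups was left out.

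**Figure D1:**
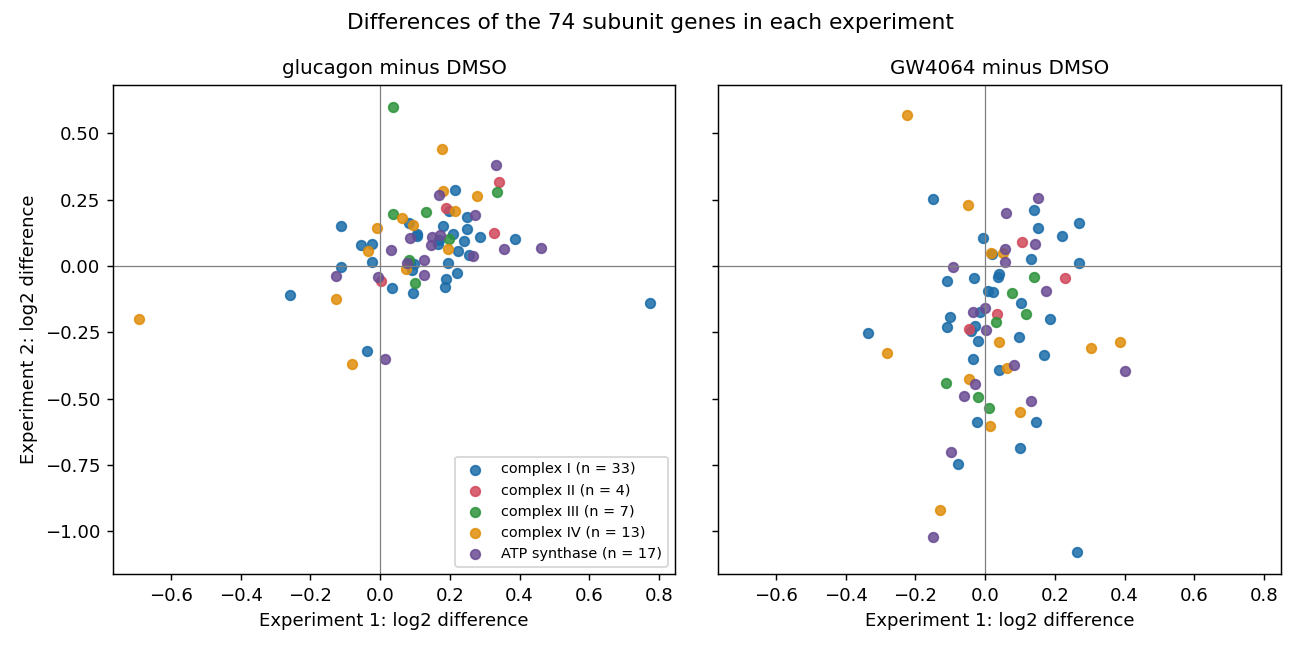
Log2 difference of each of the 74 tested subunit genes in experiment 1 (horizontal axis) and experiment 2 (vertical axis), for glucagon minus DMSO at left and GW4064 minus DMSO at right; each point is 1 gene, coloured by complex, from 1 array per treatment and experiment. At left 48 genes lie above 0 in both experiments; at right the spread runs along the vertical axis, that is, in experiment 2.

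Atp5g3, which encodes the c subunit of the rotating membrane ring, had the largest positive difference. Its signals were 7.90 and 7.90 with DMSO and 8.23 and 8.28 with glucagon (experiments 1 and 2), and the groups did not overlap. The difference was 0.36 (SE 0.13), with an adjusted p of 0.632, and of 0.274 with the block. Sdhb, the iron-sulfur subunit of succinate dehydrogenase, gave 7.99 and 8.08 with DMSO against 8.33 and 8.39 with glucagon. This is a difference of 0.33 (SE 0.13, adjusted p = 0.669), again with no overlap. Both genes were named for their large differences, and the share of all genes without overlap was not counted for this comparison.

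In complex III, Uqcrh, the hinge protein that touches cytochrome c, had 6.31 and 6.63 with DMSO and 6.65 and 6.91 with glucagon. The difference of 0.31 had an SE of 0.17 and its sign was the same in both pools. Uqcr11, a small subunit of the same complex, had almost the same mean difference, 0.32, but took it from 1 pool: 0.04 in experiment 1 and 0.60 in experiment 2. Ndufv3, an accessory subunit at the NADH end of complex I, showed the reverse, with 0.77 in experiment 1 and -0.14 in experiment 2. Its signal was 5.33 with DMSO and 5.37 with GW4064 in experiment 1 and lay between 5.71 and 6.10 on the other 6 arrays. In complex IV, Cox6b1 differed by 0.27 and the dim Cox7b2 by 0.31.

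Only 13 members were lower on average, and several of these were dim. Cox6a2 differed by -0.45 (SE 0.43), Ndufs5 by -0.18 and Atp5o, the stalk subunit known as OSCP, by -0.17. Atp5o differed by 0.01 in experiment 1 and by -0.35 in experiment 2. Sdhc, a membrane anchor of complex II, was at -0.03. No member differed by more than 0.5 in either direction. The 95% interval of the difference lay within a 1.5-fold change for 49 members and within a 2-fold change for 72. For those members, larger effects of glucagon than these were outside the interval. Changes of the size of the median were below what this fit can resolve gene by gene. The intervals of treatment differences given here come from the fit without the block, which leaves out the pairing by cell pool. Intervals with the block were not computed.

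All glucagon arrays can also be set against all arrays without it, 4 against 4, which shares its arrays with the comparison above. Again 0 of 74 members were called, without or with the block, where 1.32% of all genes were called without it and 5.76% with it. Unadjusted p-values below 0.05 were given by limma to 6 members, against 14.5% of all genes, and with the block to 13 members, against 22.4% of all genes. The members' median was 0.12, with 63 above 0, against 49.1% of all genes. Of the members 54 were higher in both experiments, against 30.6% of all genes. Atp5g3 had the smallest adjusted p, 0.178 (difference 0.32, SE 0.09), and 0.0802 with the block. Its 4 signals without glucagon ran from 7.81 to 8.07 and its 4 signals with glucagon from 8.18 to 8.28, so the groups did not overlap. The share of all genes without overlap was not counted here either. The 95% interval lay within a 1.5-fold change for 64 members.

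The 2 GW4064 arrays weighed on this comparison. Without the GW4064 array of experiment 1, Cox7b (0.61) and Ndufs3 (0.39), an iron-sulfur fraction subunit of complex I, passed the threshold, among 702 genes called in all, and the members' median was 0.16. Without the GW4064 array of experiment 2 it was 0.08. With that array left out and the block fitted, 1 member was called, the muscle isoform Cox6a2, at -0.57 with an adjusted p of 0.0330, among 1454 genes called in all. Its signals lay near the filter level, between 2.60 and 3.97. Of the 10 muscle markers, 5 passed the filter, and all 5 were lower with glucagon than with DMSO (median -0.13). Myh6, Myh7, Tnni3, Ckm and Mb failed the filter, with highest signals of 2.98 to 3.14. Their part in the Cox6a2 value was not tested.

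Promoter letters were read because members of all 5 groups leaned the same way. RefSeq windows (GRCm38.p6) of 300 bases, from 250 before to 50 after the annotated start, were found for 64 of the 78 member genes (69 windows) and compared with all 32851 windows of the table, on both strands. The nuclear respiratory factor 1 motif, a run of 10 letters that the Sdhd sequence carries in capitals, with the sixth letter free, stood in 16 of 69 windows (23.2%) against 4.60% of all, and the YY1 motif AAGATGGCG in 6 (8.70%) against 1.40%. The ETS motif CCGGAAGT stood in 5 (7.25%) against 3.89%, and the motif AAGGTCA of the estrogen-related receptors, partners of PGC-1α, in 6 (8.70%) against 4.72%. The full cyclic AMP response element TGACGTCA stood in 3 (4.35%) against 1.79%, and its core TGACG, which lies inside the full element, in 26 (37.7%) against 20.8%. A match is a run of letters and not a shown binding site. As examples of these letters, the 250 bases upstream of 3 members with a match are shown, 1 each of ATP synthase, complex II and complex III. They are given on the strand of the gene, with the matches within them in capitals. The windows of Sdhb and Ndufa4 were also read, and neither held any of these motifs.
Atp5g3, chr2:73911327-73911576, minus strand: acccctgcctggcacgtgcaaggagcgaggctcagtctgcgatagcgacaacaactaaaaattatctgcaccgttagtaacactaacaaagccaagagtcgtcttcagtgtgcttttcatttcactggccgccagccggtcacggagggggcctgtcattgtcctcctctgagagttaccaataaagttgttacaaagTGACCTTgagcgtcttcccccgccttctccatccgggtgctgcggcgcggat
Sdhd, chr9:50603850-50604099, minus strand: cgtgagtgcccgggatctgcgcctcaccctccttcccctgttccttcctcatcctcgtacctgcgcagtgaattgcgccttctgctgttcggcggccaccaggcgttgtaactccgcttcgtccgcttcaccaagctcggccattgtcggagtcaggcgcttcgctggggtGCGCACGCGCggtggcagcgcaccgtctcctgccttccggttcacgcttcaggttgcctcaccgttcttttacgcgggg
Uqcrh, chr4:116075071-116075320, minus strand: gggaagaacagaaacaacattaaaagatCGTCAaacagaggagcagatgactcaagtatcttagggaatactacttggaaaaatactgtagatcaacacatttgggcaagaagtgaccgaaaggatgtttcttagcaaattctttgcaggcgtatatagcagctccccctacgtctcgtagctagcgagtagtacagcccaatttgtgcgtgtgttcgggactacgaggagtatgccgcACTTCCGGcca
In Atp5g3 the capitals mark the receptor motif on the reverse strand, whose first base lies 52 bases before the start. In Sdhd they mark the nuclear respiratory factor 1 motif, 79 bases before the start. In Uqcrh they mark the core of the cyclic AMP element, 222 bases before the start, and the ETS motif, 11 bases before it, both on the reverse strand. After the start, outside the bases shown, Atp5g3 also held the nuclear respiratory factor 1 motif and Sdhd the receptor motif. Sdhd, a membrane anchor of complex II, had 8.82 and 9.01 with DMSO and 9.01 and 9.23 with glucagon, a difference of 0.20 that did not pass (adjusted p = 0.902). No statement on a factor's binding follows from these letters.

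Among the known regulators of respiratory chain transcription, Ppargc1a was the one with a large difference. Its signals were 3.13 and 4.11 with DMSO, 6.54 and 7.03 with glucagon, 3.08 and 3.90 with GW4064, and 6.91 and 7.59 with both (experiments 1 and 2). Every glucagon-treated array lay above every array without glucagon. It rose by 3.46 over all glucagon arrays (SE 0.30, adjusted p = 0.00589, limma) and by 3.63 with both agents against DMSO (adjusted p = 0.0494). The first call held in 16 of 16 alternatives and the second in 8 of 17. For glucagon alone the difference was 3.16 (SE 0.42), with an adjusted p of 0.0620, and of 0.000774 with the block. On the DMSO and GW4064 arrays of experiment 1 the signal was below the filter level, so the floor of the array limits the size of these differences.

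The other regulators did not follow it. In glucagon against DMSO the estrogen-related receptor gene Esrra differed by 0.07, nuclear respiratory factor 1 (Nrf1) by -0.20, the ETS factor Gabpa by -0.17 and Tfam, the factor of mitochondrial DNA transcription, by -0.36, and none of the 4 passed. Of 17 measured regulators, with Ppargc1a among them, 7 were above 0. In the comparison of all glucagon arrays, Gabpb1, the partner of Gabpa, and Polg, the mitochondrial DNA polymerase, were at -0.38 and -0.40, and both passed only with the block (adjusted p = 0.0433 each). Slc25a13, the aspartate-glutamate carrier of the inner membrane, was at 0.65 and also passed only with the block (adjusted p = 0.00691).

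Other genes of the same machinery were counted from lists. For glucagon against DMSO 0 were called, without or with the block, among 12 subunits and carriers outside the rule (median 0.08), 15 assembly factors of complex I (-0.04), 4 of complex II (-0.02), 6 of complex III (0.05), 19 of complex IV (-0.04) and 4 of ATP synthase (-0.16). The 40 measured genes of the mitochondrial ribosome had a median of -0.03, with 16 above 0. The lists of assembly factors and ribosomal proteins therefore had medians on both sides of 0, beside the members' 0.12. Cycs differed by 0.03, Cyc1 by 0.16 and Cox4i1 by 0.14, and none passed. Of the hepatocyte markers, Tat rose over all glucagon arrays by 0.83 (adjusted p = 0.0465). That call was lost when any array other than the GW4064 ones was left out. With the block, 2 of the 9 measured hepatocyte markers were called up. Cps1 had signals of 11.23 to 11.39 without glucagon and of 11.62 to 11.87 with it.

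**Figure D2:**
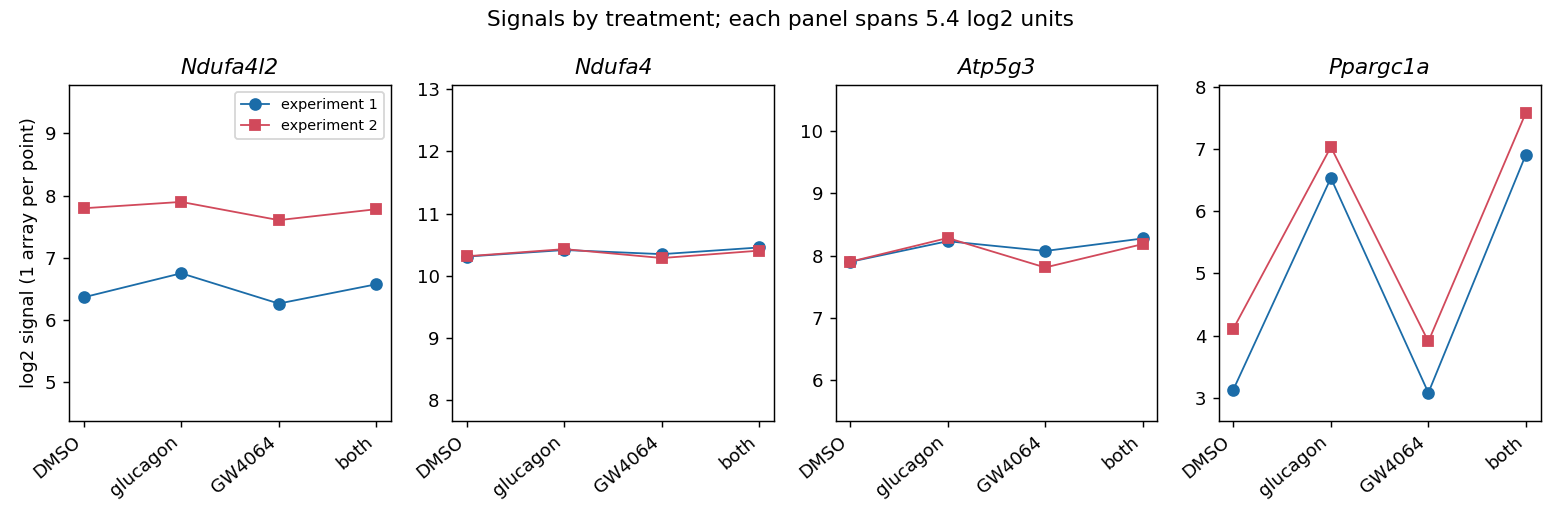
Log2 signal on each array (vertical axis) by treatment (horizontal axis) for Ndufa4l2, its paralog Ndufa4, Atp5g3 and the coactivator gene Ppargc1a; 1 point is 1 array, circles are experiment 1 and squares experiment 2, and all panels span the same number of log2 units. Ndufa4l2 is separated by experiment, Ppargc1a by glucagon, and Ndufa4 stays between 10.29 and 10.46.

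GW4064 alone also called 0 of 74 members, and 0% of all genes were called, without or with the block. At an unadjusted p below 0.05, limma counted 0 members and 2.69% of all genes without the block, and 4 members and 5.20% of all genes with it. Over all genes the median was -0.03, with 41.9% above 0. Genes with a mean signal above 5.72 had a median of -0.04, with 37.2% above 0, and of the 55 members above that level 18 were above 0. The members' median was -0.08, with 25 above 0 and 49 below. It came from 1 array: 0.03 in experiment 1 and -0.20 in experiment 2, and 0.00 when the GW4064 array of experiment 2 was left out.

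That array was low for many subunits. Against the mean of the other 3 arrays of its experiment, the members' median was -0.23, with 59 of 74 below 0, and the median of all genes was -0.05. On it, 13 members (17.6%) were lower by more than 0.5 and 0 were higher by as much, against 1421 of all genes (10.3%) lower and 879 higher. For 40 of 74 members (54.1%) it held the lowest of the 8 signals, which was so for 30.1% of all genes. The GW4064 array of experiment 1 showed no such shift, with a median of -0.03 and 0 members lower by more than 0.5.

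Its median was -0.41 in complex III, -0.37 in complex IV, -0.31 in ATP synthase, -0.22 in complex II and -0.13 in complex I, differences between complexes that were not tested. The 13 members beyond 0.5 were Ndufa12, Ndufa13, Ndufb5, Ndufb7, Ndufb8, Uqcrb, Uqcrc1, Cox5b, Cox7a2l, Cox7b, Atp5d, Atp5g1 and Atp5l. Cox7b, a small structural subunit of complex IV, was lowest in relation to its neighbours, at 7.79 against 8.71, 8.90 and 8.84 on the other arrays of experiment 2. In experiment 1 it had 8.81 with DMSO and 8.68 with GW4064. Atp5g1 was at 3.45 against 4.47 with DMSO in experiment 2, and at 4.41 against 4.56 in experiment 1.

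**Figure D3:**
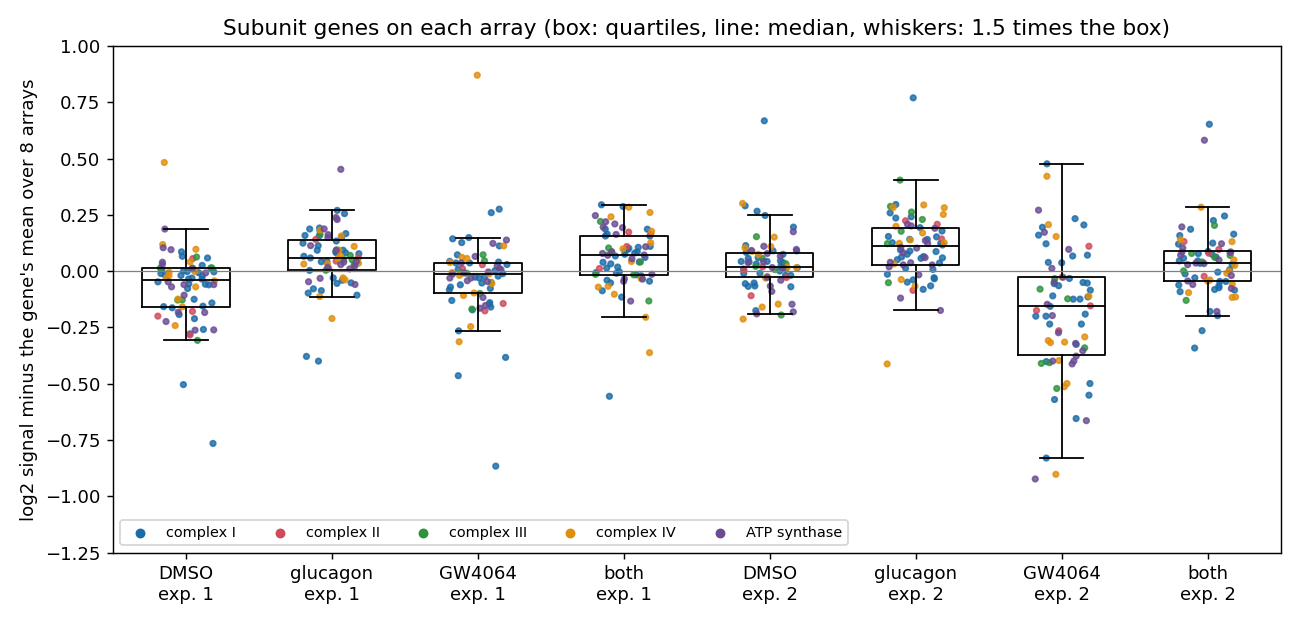
Signal of each of the 74 tested subunit genes on each array (horizontal axis), as the log2 signal minus that gene's mean over the 8 arrays (vertical axis); 1 point is 1 gene, coloured by complex, and boxes show quartiles and median, with whiskers to the last point within 1.5 times the box. The box of the GW4064 array of experiment 2 lies lowest and is widest, and that array enters every gene's mean. Both glucagon arrays have medians above 0, and so does the DMSO array of experiment 2, so this is not particular to glucagon.

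In GW4064 against DMSO the lowest members took most of their difference from experiment 2. Atp5g1 differed by -0.58 (-0.15 and -1.02 in experiments 1 and 2), Cox7b by -0.52 (-0.13 and -0.92), Ndufa13, a complex I subunit also known as GRIM-19, by -0.41 (-0.08 and -0.75) and Uqcrb by -0.28 (-0.11 and -0.44). None passed, each with an adjusted p of 0.999. The largest positive differences were 0.22 for the dim Ndufb11 and 0.20 for Atp5h, the d subunit of the stator, and these had the same sign in both pools. Without the GW4064 array of experiment 1, so that only the low array stood for the treatment, Cox7b was called at -0.97 (adjusted p = 0.0278), 1 of 406 genes called in all. Outside the rule, Cyc1, the cytochrome c1 of complex III, was also low on that array, at 5.64 against 7.16 to 7.37 on the other 3 of its experiment. Of the 74 intervals of the difference, 50 lay within a 1.5-fold change and 69 within a 2-fold change.

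With both agents against DMSO, 0 of 74 members were called beside 0.123% of all genes (17), and with the block 0 beside 0.737%. By limma 1 member had an unadjusted p below 0.05, without or with the block, beside 861 and 1659 of all genes. The median was 0.07, from 0.12 in experiment 1 and 0.01 in experiment 2, with 51 above 0, against 45.4% of all genes. Atp5g3 was again among the higher members, at 8.27 and 8.18 against 7.90 and 7.90 with DMSO, a difference of 0.33 (SE 0.13, adjusted p = 0.757). All 4 members of complex II were above 0, from 0.11 to 0.22, and of complex IV 6 of 13 were. The largest value, 0.43, belonged to the pseudogene Atp5c1-ps and came from experiment 2 (0.77, against 0.09 in experiment 1). Ndufb11, with signals near the filter level, was lowest at -0.25.

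Adding GW4064 to glucagon called 0 of 74 members and 0% of all genes. The members' median was -0.05, with 25 above 0 and 49 below, and all genes had a median of -0.00, with 48.7% above 0. At an unadjusted p below 0.05, limma counted 0 members and 90 genes in all without the block, and 2 members and 194 genes in all with it. Adding glucagon to GW4064 called 0 of 74 beside 0.166% of all genes (1.06% with the block), and limma gave 3 members an unadjusted p below 0.05, or 9 with the block, beside 10.5% and 17.4% of all genes. Here the members' median was 0.16 with 62 above 0, against 51.8% of all genes. Without the GW4064 array of experiment 2 the members' median was 0.06. Cox7b had the largest difference, 0.66, and Ndufb11 the lowest, -0.47 (adjusted p = 0.316).

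The interaction, which asks whether the glucagon difference depended on GW4064, called 0 of 74 members and 0% of all genes. Limma counted 0 members at an unadjusted p below 0.05 without the block and 2 with it, among 149 and 332 genes in all. The members' median was 0.05, from -0.04 in experiment 1 and 0.13 in experiment 2, and -0.04 without the GW4064 array of experiment 2. Its sign thus turned with that array.

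Between the experiments, that is, between the 2 cell pools, 1 member was called: Ndufa4l2 was higher in experiment 2. Each experiment was 1 pool, so the p-values and intervals between experiments measure the spread among arrays of 2 pools. They do not measure the spread between pools or animals. Over all genes 5.16% were called in this comparison, 366 up (2.64%) and 349 down (2.52%), so 1 of 74 members was a smaller share. The count over all genes depended on single arrays: it was 26 without either DMSO array, 111 without either array with both agents, 129 without either glucagon array and 728 without either GW4064 array, and 1 member was called in each case. Limma gave 14 members an unadjusted p below 0.05, or 18.9%, against 23.9% of all genes. The members' median was -0.02 and that of all genes was -0.02, with 34 members above 0 and 40 below, beside 45.5% of all genes above 0. Without the GW4064 array of experiment 2 these medians were 0.02 and -0.01. For 67 members the 95% interval lay within a 1.5-fold change.

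Ndufa4l2 is a paralog of Ndufa4, a protein first assigned to complex I and now placed in complex IV, and Ndufa4l2 is best known as a hypoxia-inducible gene. Its signals in experiment 1 were 6.36 with DMSO, 6.75 with glucagon, 6.26 with GW4064 and 6.57 with both. In experiment 2 they were 7.80, 7.90, 7.61 and 7.78. The 2 sets did not overlap, and each treatment showed a difference of 1.15 to 1.43. The difference was 1.28 (SE 0.08, 2.43-fold, adjusted p = 0.00218, limma with treatment in the model), an SE and p that rest on 1 pool per experiment. It passed in all 14 alternatives run, with values of 1.23 to 1.34. These are not 14 separate checks, because leaving out either array of a treatment gave the same result. Ndufa4 itself lay between 10.29 and 10.46 on all 8 arrays and differed by -0.02. Within an experiment, the glucagon and DMSO arrays of Ndufa4l2 differed by 0.39 and 0.10, less than the pools did under any treatment.

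**Figure D4:**
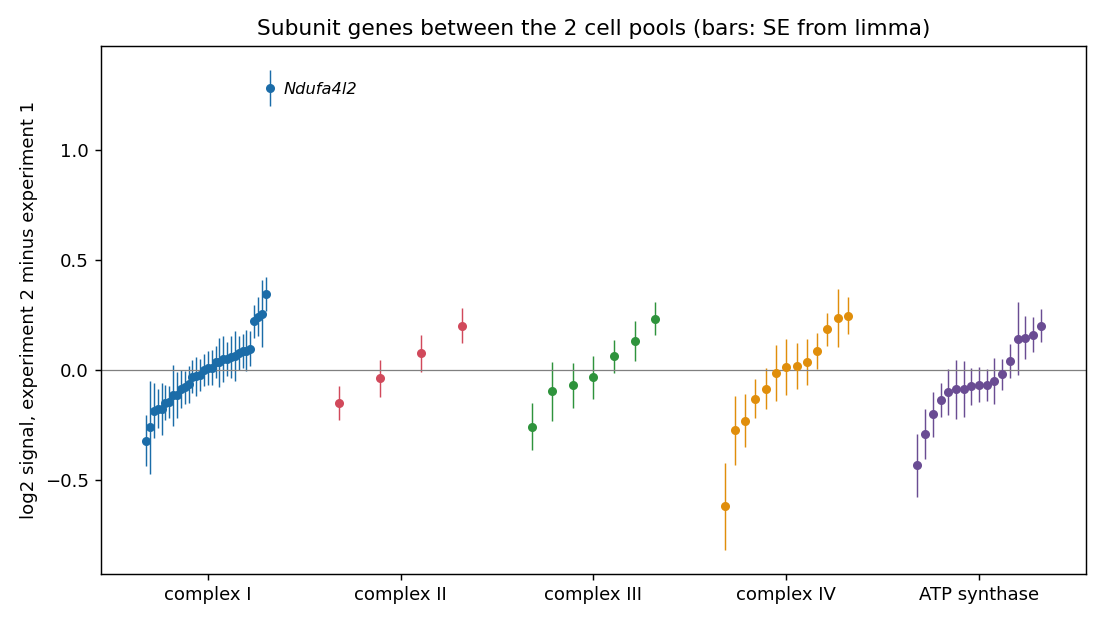
Difference between the cell pools, experiment 2 minus experiment 1 (vertical axis, log2), for each of the 74 tested subunit genes, grouped by complex and sorted within it (horizontal axis); points are limma estimates over 4 arrays per experiment and bars are 1 SE. The bars do not measure the spread between pools. Ndufa4l2 stands at 1.28, and most of the other members lie within 0.3 of 0.

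Ndufb9, an accessory subunit of the membrane arm, had signals of 10.48 to 10.67 in experiment 1 and of 10.84 to 10.99 in experiment 2. Its adjusted p, 0.0560, was the next smallest after that of Ndufa4l2 (difference 0.34, SE 0.08). It passed where the filter was set at the 60th percentile (adjusted p = 0.0401, 901 genes called in all) or an intensity trend was fitted (0.0131, 1090 genes). Cox6a2 was lower in experiment 2 by a difference of -0.62 (SE 0.20, adjusted p = 0.125), Atp5g1 by -0.44 and Ndufb7 by -0.32, and Uqcrh differed by 0.23, none past the threshold. Non-overlapping signals of the 2 experiments were found for 8 of 74 members, against 14.4% of all genes: Ndufa3, Ndufa4l2, Ndufa8, Ndufb9, Ndufs7, Uqcrc1, Atp5h and Atp5md.

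Several related genes moved with the pools. In experiment 2, Higd1a, a small protein of the inner membrane that is also hypoxia-inducible, rose by 0.79 (adjusted p = 0.0219), Ndufaf3, a complex I assembly factor, by 0.46 (0.0327), Ppargc1a by 0.74 (0.0146) and Slc25a13 by 0.40 (0.0343). Cell type markers differed as well. Endothelial markers were lower for 8 of 8 measured genes (median -0.45), and Lyve1 (-1.02), Eng (-0.83) and Oit3 (-0.70) passed, while Clec4g and Tek did not pass the filter. Of 9 hepatocyte markers 2 rose, Asgr1 and Fgb by 0.71 each, with a list median of 0.32. Of 9 Kupffer cell markers 2 rose past the threshold, Cd68 by 0.43 and Marco by 0.38. In that list 6 genes were above 0 and 3 below, with a median of 0.14. Of 4 measured stellate cell markers Reln (0.84) and Rgs5 (0.61) rose, and the other 2, Acta2 and Pdgfrb, were lower and did not pass. The stellate genes Lrat, Des, Col1a1, Col1a2, Col3a1 and Hand2 failed the filter, with highest signals of 2.95 to 3.15. Of the genes named here 13 passed, and none of the 13 passed when either DMSO array was left out. The part of these cells in the Ndufa4l2 value was not tested.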

How the data were processed

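Affymetrix MoGene 2.0 ST arrays were processed by the authors in GeneSpring, per the labels; the sources used here name neither its version nor how background was corrected, probes were summarised or arrays were normalized. The deposited values are used as log2 signals, which was read from their range. Of 41345 probe sets, 23521 carry 1 symbol in the platform annotation, 1814 several and 16010 none; only the first were used as genes. A gene was tested when its probe set was above the 40th percentile of 2 or more arrays, which left 13845 genes. RNA input to labelling was 300 ng.

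Differences were tested two-sided with limma 3.58.1 in R 4.3.3: 1 mean per group, 8 arrays, 4 residual and 3.06 prior degrees of freedom, empirical Bayes, and Benjamini-Hochberg adjustment over all genes. The experiments came from a model of treatment plus experiment. Arrays of one experiment share a cell pool per the labels and are paired; their deviations from group means correlated at r = 0.350 to 0.620, and a second model held the experiment as a block. The labels do not describe the 4 arrays of an experiment as separate animals, so p-values between experiments measure the spread within 2 pools. Promoter windows came from RefSeq (GRCm38.p6), matched by gene ID and read with Python 3.11.15. The fits were checked on simulated data.

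Members, gene lists, tests and alternatives were chosen with earlier results of these data known. Genes named are those called in any comparison, the highest and lowest difference per complex, the highest and lowest signal per complex, tissue isoforms, members that failed the filter, and called genes of the lists. Others, such as the members low on 1 array, were named after their values were seen. Alternatives were the block, quantile normalization, median centring, other filters, the mean of probe sets, fits on the compared groups alone, an intensity trend, and leaving out each array.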

Additional observations from a re-analysis of the deposited data

How the results depend on the processing

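Of the values for single genes under the alternatives, 830 kept their direction and side of the threshold, 95 lost a call, 15 gained one and 14 turned sign, the last all in genes that had not passed. With the experiment as a replicate block the counts of called members were 0 in all 7 treatment comparisons, as without it, while the count over all genes went, for glucagon, from 16 to 128. With the block and the second GW4064 array left out, the median of both against GW4064 was 0.054, and for all glucagon arrays 1 member was called and the median was 0.082. Between experiments 2 members were called with the 60th-percentile filter, among 901 genes in all, and 2 with the intensity trend, among 1090, where 715 were called otherwise. Leaving out each array in turn gave medians of 0.044 to 0.13 for glucagon against DMSO, 0.061 to 0.20 for both against GW4064 and 0.085 to 0.16 for all glucagon arrays, and counts of 0 to 1, 0 to 1 and 0 to 2 for GW4064 against DMSO, both against GW4064 and all glucagon arrays. The genes whose sign turned on leaving out an array had ranges of -0.068 to 0.70 (Ndufv3) and -0.099 to 0.046 (Sdhc) for glucagon against DMSO, of -0.052 to 0.25 (Sdha), -0.11 to 0.21 (Uqcrh) and -0.16 to 0.51 (Cox7b2) for GW4064 against DMSO, and of -0.051 to 0.72 (Ndufv3) and -0.32 to 0.054 (Atp5g1) for both against DMSO. Signs also turned for Sdhc with glucagon after quantile normalization (0.022) and, with GW4064, for Cox7b2 with the block and without the second GW4064 array (-0.12), for Uqcrh after median centring (-0.020) and for Atp5h with the mean of its probe sets (-0.072). The causes were not tested. Signals near the filter level limit Ndufs5, Ndufb11, Cox6a2 and Atp5g1.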

Other observations

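Ndufa4l2 was not alone among hypoxia-inducible genes in differing between the cell pools. Of 16 such genes, listed after the value of Ndufa4l2 had been seen, 15 were measured, all 15 were higher in experiment 2 and 12 passed the threshold (limma, median difference 0.78, beside 2.64% of all genes called up). Hmox1, the heme oxygenase, rose by 1.61, the secreted peptide gene Adm by 1.55, the prolyl hydroxylase gene Egln3 by 1.53 and Bnip3, a mitophagy receptor, by 1.12. Pdk1, which restrains pyruvate entry into mitochondria, rose by 0.96, Vegfa by 0.70 and the glucose transporter gene Slc2a1 by 0.50. The glycolytic genes Ldha (0.32, adjusted p = 0.0608) and Pgk1 (0.33, 0.0622) did not pass, nor did Car9 (0.03), whose signal stayed near the filter level. All 15 stayed above 0 when any 1 array was left out (median 0.69 to 0.86), but the number that passed was 1 without either DMSO array, 4 without either glucagon array, 5 without either array with both agents and 11 without either GW4064 array. With glucagon against DMSO 0 of these genes were called. Because the list was drawn up after the values were seen, these counts are a description.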
